A study of Anolis carolinensis with 15 samples.

Results

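Genes of the interleukin-6 (IL-6) family pathway were examined in cells of regenerating lizard tails sorted for *col3a1*, which the study describes as fibroblasts. The 10 genes were fixed by name and comprised the ligand genes *il6* and *il11*, the receptor genes *il6r*, *il6st*, *osmr* and *lifr*, the kinase genes *jak1* and *jak2*, the transcription factor gene *stat3* and the inhibitor gene *socs3*. All 10 were found among the 26523 genes of the deposited counts. The data comprised 15 bulk RNA-seq libraries of col3a1+ cells from tails of green anoles (*Anolis carolinensis*), in 5 groups of 3 libraries called A, B and C. In the time course, tails were collected 7, 14 and 28 days after amputation (D7, D14 and D28) without drug treatment. In the treatment experiment, lizards were injected with zoledronic acid (ZA), a bisphosphonate that inhibits osteoclasts, or with phosphate-buffered saline (PBS) from the week before amputation, and tails were collected at D21. No transgene or mutation was named for any group, and lizards of both sexes in the later months of their first year were used.

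Tails were dissociated, and fixed cells were labelled with fluorescent hybridization probes against *col3a1* before sorting, so that RNA came from fixed cells and *col3a1* itself was used to choose them. The study also names a gate on the epidermal keratin gene *krt5*, whose sign is given differently in places. Sorted populations were sequenced as a whole, so fewer cells of a type and less RNA per cell cannot be told apart. The treatment experiment used separate tails, and the time course is described as repeated experiments, although the sources do not say whether a library held 1 tail or several. There p-values measure only the spread between these libraries.

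Library totals ranged from 4237978 counts in ZA A to 12699682 counts in D14 A. The sorted gene *col3a1* was found at 1729 to 22071 CPM (counts scaled to a common library size by edgeR's TMM method) in every library. All 8 fibroblast markers listed were detected in every group, although *thy1* had a library at 0 counts in D7, D28, PBS and ZA. For epidermis, 8 of 12 listed markers were found, with sums of 476 CPM in D7 B to 6849 CPM in ZA B. The gate gene *krt5* was not among those found by symbol. The fibroblast sum of ZA B was 7975 CPM. Of the 16 leukocyte markers listed, 11 were in the files, and their summed level was 50.9 to 268 CPM. D28 A stood apart, with a fibroblast marker sum of 95347 CPM, against 25500.1 CPM in D28 B and 26193 CPM in D28 C. Among counts of 2 to 60, the most frequent value was 24 in D28 A and 14 in PBS A, whereas it was 4 or 5 in the other libraries. The study describes 1 D14 library that did not cluster with its timepoint. It names batch effects as the most likely reason, as that library was sequenced ahead of the rest. Similar batch effects are mentioned for the PBS and ZA libraries. No library is identified, so sequencing run could not be fitted. As a group, the D14 libraries had fewer genes at a count of 0, 1623 to 1642, than the other libraries, with 3462 to 6614. Whether this bears on the comparisons that use D14 was not tested. The treatment entries in the records of PBS A and ZA A differ from their titles, and titles were followed here.

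IL-6 and interleukin-11 each bind a ligand-specific receptor chain, and the bound pair recruits gp130, the shared signalling chain encoded by *il6st*. Janus kinases (JAKs) on the receptor tails then phosphorylate STAT3, which enters the nucleus and activates target genes. One target is *socs3*, whose protein binds gp130 and JAKs and shuts the signal off again, so that its transcript is widely read as an early response to cytokines. In mammals the pathway is known in wound inflammation and in fibroblast activation.

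In the annotation rAnoCar3.1.pri, each of the 10 symbols had 1 protein-coding entry. *socs3* lies on chromosome 2 at 146988231 to 146991080. On the same chromosome are *jak2* at 240980473 to 241098938, *il6st* at 296606944 to 296644789, *osmr* at 302316495 to 302355125 and *lifr* at 302474657 to 302581094. The receptor genes *osmr* and *lifr* are thus neighbours, 119531 bases apart with 1 annotated gene between them. *jak1* lies on chromosome 4 at 169046672 to 169113694. Chromosome 6 carries *il11* at 14758097 to 14778007, *stat3* at 29797279 to 29857589 and *il6* at 84278081 to 84280536. For *il6r* the annotation gives no chromosome. No other annotated gene overlapped any of the 9 placed genes.

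At D7, *socs3* and *il6r* were higher than the mean of D14 and D28, and no gene of the 10 was called lower. At D28, *lifr* was higher than at D14. No member was called between ZA and PBS at D21. Genes were called where edgeR's quasi-likelihood test gave an adjusted p under 0.05. In each comparison 9 of the 10 genes had enough counts to be tested, and *il6* did not.

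**Figure D1:**
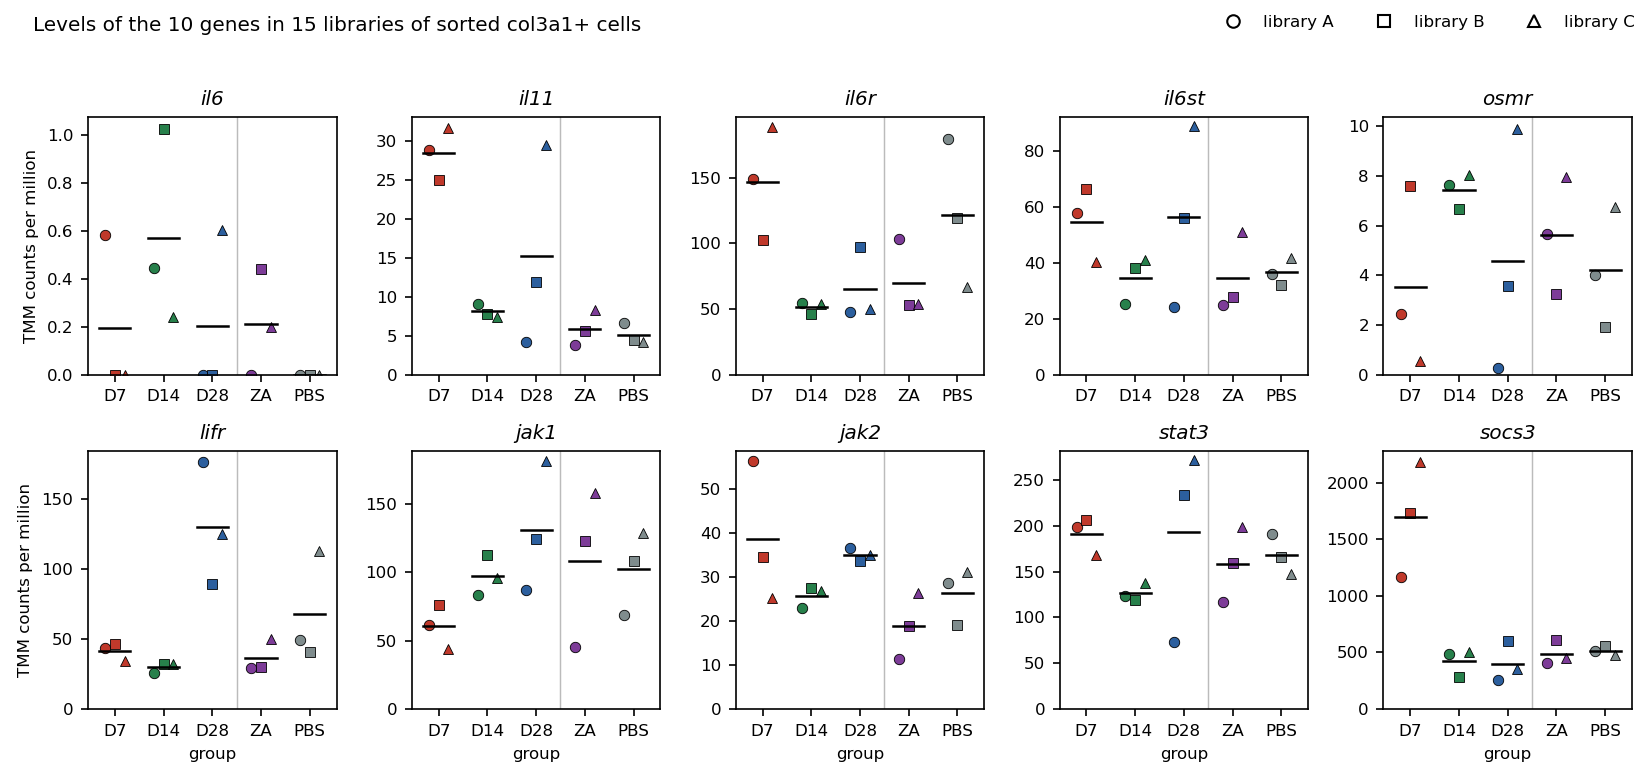
Each panel plots 1 gene, with TMM-scaled CPM on a linear vertical axis from 0 and the 5 groups on the horizontal axis. Points are libraries, lines are means of 3 libraries, and the grey line parts the time course from the treatment experiment. The 3 D7 libraries of *socs3* lie at 1169.8 to 2180.0 CPM, above all other libraries, and the 3 D28 libraries of *lifr* lie at 89.5 to 176 CPM, above all D7 and D14 libraries.

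The ligand gene *il6*, which encodes the cytokine that names the family, was close to the detection limit. Its counts were 5, 0 and 0 in the D7 libraries, 6, 14 and 3 in the D14 libraries, and 0, 0 and 6 in the D28 libraries. In the treatment experiment they were 0, 5 and 2 with ZA and 0 in each PBS library. A count of 0 allows up to 3 counts, if counts arise singly. That is 0.310 CPM in PBS A and 0.772 CPM in ZA A, the lowest and highest limits of libraries at 0. These limits cover counting error only. They may be too low for PBS A and D28 A, whose most frequent count between 2 and 60 was 14 and 24. *il6* was detected in all 3 D14 libraries, and in fewer libraries of every other group. The study names *il6* among genes increased at D7, an increase that these counts do not show. D14 libraries also had the fewest genes of any kind at a count of 0, 1623 to 1642, against 3462 to 6614 in the other libraries. Detection at D14 is thus not particular to *il6*. *il6* had too few counts for the main comparisons, so a difference between groups was not tested there and no fold change is given.

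*il11* encodes interleukin-11, a gp130 cytokine that is known to be made by activated fibroblasts in mammals. It had 28.8, 25.0 and 31.6 CPM at D7, 9.11, 7.82 and 7.46 CPM at D14, and 4.18, 11.9 and 29.4 CPM at D28. D7 and D14 libraries did not overlap, but D28 C reached the D7 range while D28 A was the lowest of the time course. The share of all genes with D7 and D14 libraries so apart was not counted. The log2 fold change of D7 against D14 and D28 was 1.35 ± 0.47 (SE, 95% interval 0.34 to 2.37), which did not pass (adjusted p = 0.0886 from edgeR). It passed without D28 A, at 1.13 (adjusted p = 0.0229 from edgeR), and without D28 C, at 1.83 (adjusted p = 0.0209). DESeq2 also called it, at 1.35 (adjusted p = 0.0432). At D21 *il11* was low in both groups, with 3.86, 5.57 and 8.25 CPM with ZA and 6.61, 4.44 and 4.19 CPM with PBS.

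Among receptors, *il6r* encodes the chain that binds IL-6 itself. It had 149, 102 and 189 CPM at D7, 54.9, 46.5 and 53.7 CPM at D14, and 47.6, 97.6 and 50.4 CPM at D28. All D7 libraries were above all D14 and D28 libraries, although D7 B exceeded D28 B only by a small margin. *il6r* was 2.55-fold higher at D7 than in the mean of D14 and D28, with a log2 fold change of 1.35 ± 0.29 (SE, 95% interval 0.72 to 1.98, adjusted p = 0.0147 from edgeR). The call was lost without D7 C, at 1.12 (adjusted p = 0.107 from edgeR), and it was kept in the other 8 of 9 fits that left out 1 library. Against D28 alone the log2 fold change was 1.19 and did not pass (adjusted p = 0.0558 from edgeR), whereas against D14 alone it was 1.51 (adjusted p = 0.0330). Thus the test passed against D14 alone and not against D28 alone, although the D7 libraries were above those of both. D28 and D14 were not told apart, with a log2 fold change of 0.33 (95% interval -0.43 to 1.08).

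*il6st*, which encodes the shared chain gp130, was detected in all libraries. It had 57.8, 66.2 and 40.1 CPM at D7, 25.2, 38.0 and 40.8 CPM at D14, and 24.3, 55.9 and 88.7 CPM at D28. The D28 libraries spread beyond the range of both other timepoints. No test passed, with log2 fold changes of 0.31 (95% interval -0.50 to 1.12) for D7 against D14 and D28 and 0.71 (-0.24 to 1.67) for D28 against D14.

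*osmr* encodes the oncostatin M receptor chain, and its libraries spread widely within groups. Its counts were 21, 66 and 4 in the D7 libraries, 103, 91 and 99 in the D14 libraries, and 2, 32 and 98 in the D28 libraries. D14 libraries were alike, while D7 and D28 libraries differed among themselves by more than the groups did. The log2 fold change of D7 against D14 and D28 was -0.73, with a 95% interval of -2.75 to 1.29. That of D28 against D14 was -0.67 (-2.92 to 1.58), and both intervals span changes of several-fold in either direction.

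*lifr*, the neighbour of *osmr*, encodes the chain that pairs with gp130 for leukemia inhibitory factor and several related cytokines. It had 43.6, 46.4 and 34.2 CPM at D7, 26.0, 32.01 and 32.5 CPM at D14, and 176, 89.5 and 125 CPM at D28. The lowest D28 library was above every library of D7 and D14. At D28 *lifr* was 4.30-fold higher than at D14, with a log2 fold change of 2.10 ± 0.32 (SE, 95% interval 1.41 to 2.80, adjusted p = 0.0102 from edgeR). It was still called without D28 A, at 1.84 (adjusted p = 0.00279 from edgeR). The call was lost when D14 A, B or C was left out, at 2.02, 2.15 and 2.15 (adjusted p = 0.0955, 0.0802 and 0.0837 from edgeR), where all genes called numbered 37, 35 and 40. *lifr* was also lower at D7 than at D28 alone, with a log2 fold change of -1.64 (adjusted p = 0.0130 from edgeR).

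Cartilage markers also differed between D28 and D14. Their summed level over all 9 listed genes was 7489, 7693 and 9332 CPM in D28 A, B and C, against 473, 540.2 and 540.3 CPM in D14 A, B and C. Of the 9, 6 were called higher at D28, while *sox9* was fitted lower, at -1.02 (adjusted p = 0.361 from edgeR). Within D28, *lifr* was highest in library A, where the cartilage sum was lowest, although that of D28 B was close. D28 A also had the highest fibroblast marker sum, 95347 CPM, against 25500.1 and 26193 CPM in D28 B and C. In D14 libraries that sum was lower, at 7388 to 8777 CPM, and 6 of the 8 fibroblast markers were fitted higher at D28 than at D14. The collagen genes *col1a1* and *col1a2* were called higher among the 8 fibroblast markers, as were *mpz* among 4 Schwann cell markers and *des* among 7 muscle markers. In the treatment experiment the cartilage sums were 923, 304 and 287 CPM with ZA, against 31697, 3669 and 14946 CPM with PBS. There *lifr* had 29.1, 30.3 and 50.01 CPM with ZA, against 49.0, 41.1 and 113 CPM with PBS. The part of cells with these markers in the *lifr* difference was not tested.

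Levels of *lifr* relative to *il6st* do not depend on scaling between libraries. The ratio of their counts was 7.27, 1.60 and 1.41 in D28 A, B and C, against 1.03, 0.842 and 0.796 in the D14 libraries. In D7 libraries it was 0.754, 0.701 and 0.852. All D28 ratios were thus above all others of the time course, with D28 A far above D28 B and C.

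**Figure D2:**
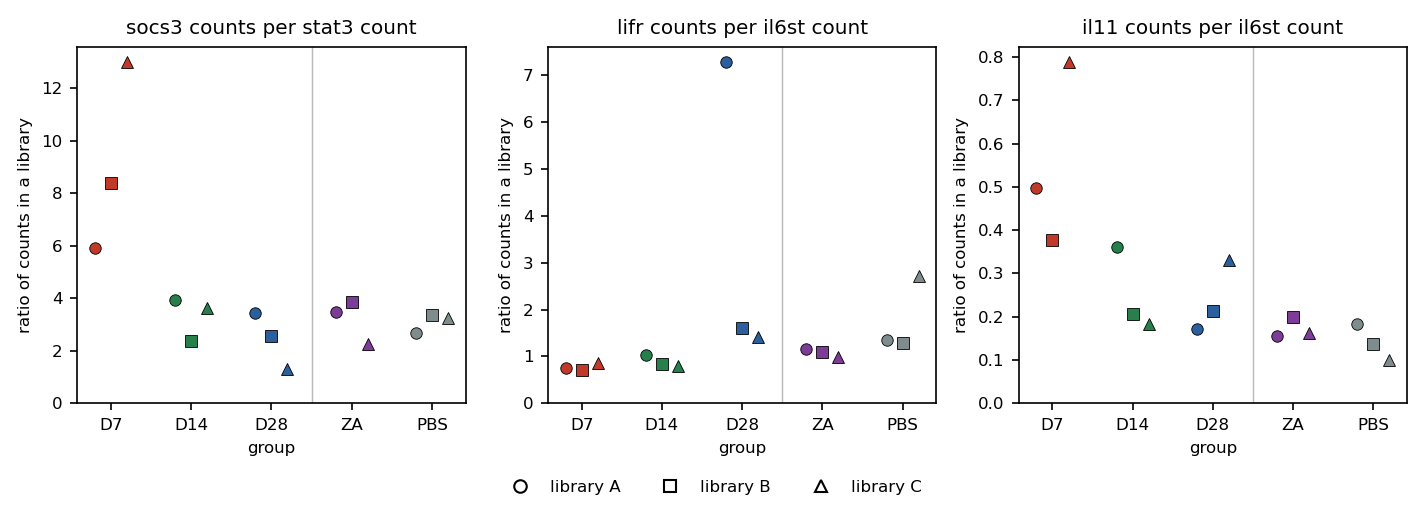
Panels plot counts of *socs3* per count of *stat3*, of *lifr* per count of *il6st* and of *il11* per count of *il6st* in each library, on linear axes from 0, by group. Ratios of *socs3* to *stat3* are 5.90 to 13.0 in D7 libraries and at most 3.94 elsewhere, and those of *lifr* to *il6st* are highest in D28 A at 7.27.

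The kinase gene *jak1*, whose product is the main JAK used by gp130 in mammals, had 61.7, 76.3 and 44.2 CPM at D7. It had 83.3, 113 and 95.95 CPM at D14 and 87.3, 124 and 182 CPM at D28. Each D7 library was below each D14 and D28 library. The log2 fold change of D7 against D14 and D28 was -0.89 ± 0.31 (SE, 95% interval -1.56 to -0.22), which did not pass (adjusted p = 0.0873 from edgeR). It was called lower without D28 A, at -1.01 (adjusted p = 0.0119 from edgeR), among genes with mean counts of 50 or more, at -0.96 (adjusted p = 0.0434), and by DESeq2, at -0.91 (adjusted p = 0.0237).

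*jak2* encodes the related kinase used by many cytokine receptors. It had 56.4, 34.5 and 25.2 CPM at D7, 23.1, 27.5 and 26.8 CPM at D14, and 36.6, 33.8 and 35.1 CPM at D28. The D28 libraries were all above the D14 libraries, by a log2 fold change of 0.44 (95% interval -0.297 to 1.18) that did not pass (adjusted p = 0.720 from edgeR). Across all genes tested, 8.4% had all D28 libraries above all D14 libraries.

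*stat3* encodes the factor that carries the signal to the nucleus. It had 198, 207 and 168 CPM at D7, 123, 119 and 138 CPM at D14, and 73.5, 234 and 271 CPM at D28. D7 libraries were above D14 libraries, but D28 A was the lowest and D28 C the highest library of the time course. How many of all genes had D7 above D14 libraries was not counted. No test of *stat3* passed with all libraries, with log2 fold changes of 0.29 (95% interval -0.46 to 1.05) for D7 and 0.62 (-0.27 to 1.51) for D28 against D14. Without D28 A, *stat3* was called higher at D28 than at D14, at 1.01 (adjusted p = 0.0257 from edgeR).

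The feedback inhibitor *socs3* had the largest change of the members at D7. It had 1169.8, 1732 and 2180.0 CPM at D7, 485, 279.9 and 502 CPM at D14, and 253, 599.8 and 351 CPM at D28. The lowest D7 library was well above the highest library of D14 and D28. *socs3* was 4.15-fold higher at D7 than in the mean of D14 and D28, with a log2 fold change of 2.05 ± 0.33 (SE, 95% interval 1.33 to 2.78, adjusted p = 0.00497 from edgeR). It was called in all 9 fits that left out 1 library, with log2 fold changes of 1.82 to 2.27 (adjusted p up to 0.0467 from edgeR). Against D14 alone it was 2.01 (adjusted p = 0.0215 from edgeR), and against D28 alone it was 2.09 (adjusted p = 0.0147). With the log2 fold change over 2 that the methods add, *socs3* alone of the members was called higher, against 0.9% of all genes. D28 and D14 did not differ beyond their spread, with a log2 fold change of -0.079 (95% interval -0.95 to 0.80). Thus *socs3* was highest at D7, and the later timepoints were not told apart. The study had already named *socs3* among genes increased at D7 in these libraries, so this is no independent finding.

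The rise of *socs3* was not matched by *stat3*. Counts of *socs3* per count of *stat3* were 5.90, 8.38 and 13.0 in D7 A, B and C. They were 3.94, 2.36 and 3.64 in D14 libraries and 3.44, 2.57 and 1.296 in D28 libraries. D7 libraries were above all others and in the order of their *socs3* level.

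Of the 9 genes tested, 2 were called higher and 0 lower at D7, where 5.62% of 21326 genes were called higher and 4.11% lower. One gene, *jak1*, was lower at an unadjusted p under 0.05, and DESeq2 called it while limma called none lower. Of the 9, 3 had all D7 libraries on one side of all D14 and D28 libraries. These were *il6r* and *socs3* above, against 9.37% of all genes, and *jak1* below, against 7.04%. Between D28 and D14, 1 gene was called higher and 0 lower, against 0.675% and 0.352% of all genes. None was lower at an unadjusted p under 0.05 or by DESeq2 or limma. The median log2 fold change of the 9 was 0.31 at D7, against -0.078 over all genes tested, and 0.44 at D28 against D14, compared with 0.041 over all genes. D7 was set against D14 and D28 in one fit, so that both comparisons share libraries.

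**Figure D3:**
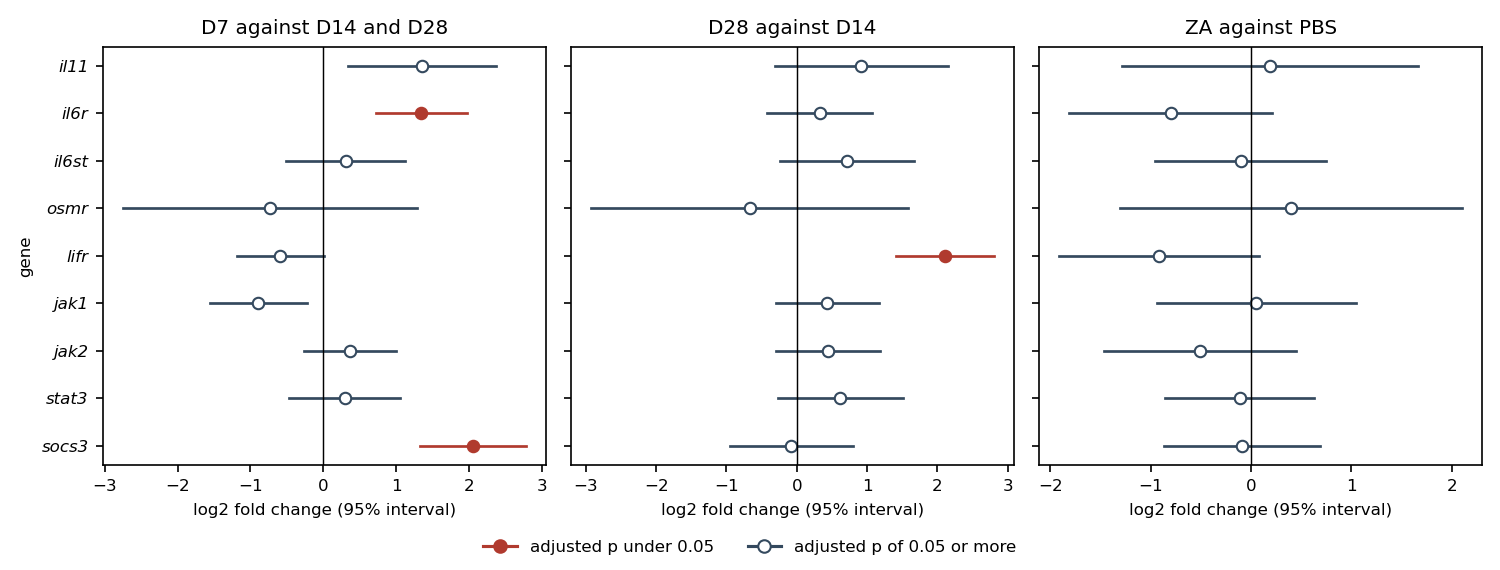
Log2 fold changes of the 9 tested genes are plotted with 95% intervals from edgeR for D7 against D14 and D28, D28 against D14, and ZA against PBS, with positive values to the right of the vertical line at 0. Filled red points passed an adjusted p of 0.05, and these are *socs3* at 2.05 and *il6r* at 1.35 in the D7 panel and *lifr* at 2.10 in the D28 panel.

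Epidermal markers also moved at D7, and their part in the D7 differences was not tested. Of 12 epidermal genes listed, 8 were found by symbol and tested, and all 8 were called lower at D7. Their summed level was 899.8, 476 and 593 CPM in D7 A, B and C, and 3382 to 4883 CPM in D14 libraries. It was 909, 5179 and 3954 CPM in D28 A, B and C, so that D28 A was near the D7 range. D28 A had 253 CPM of *socs3* and 47.6 CPM of *il6r*, each below every D7 library. D28 A also stood apart from D28 B and C in its fibroblast marker sum of 95347 CPM and in its low counts. Whether its epidermal level bears on its *socs3* and *il6r* levels was not tested. Fibroblast marker sums were 18407 to 20958 CPM at D7, 7388 to 8777 CPM at D14 and 25500.1 to 95347 CPM at D28. Leukocyte sums overlapped, with 68.1 to 112 CPM at D7, 59.9 to 92.0 CPM at D14 and 53.5 to 166 CPM at D28. Of 9 leukocyte genes tested, 0 were called at D7 and 3 were fitted higher. Single genes moved in opposite directions beneath the sum. *csf1r* was fitted higher at 1.26, just short of a call (adjusted p = 0.0535 from edgeR), and *ifi30* lower at -1.17 (adjusted p = 0.171). Of the other marker lists, 4 of 9 cartilage, 3 of 4 Schwann cell and 2 of 7 muscle genes tested were called lower at D7.

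Within groups, members differed in which library was highest. In D7, library C had the highest *socs3*, *il6r* and *il11* and the lowest *il6st*, *osmr*, *lifr*, *jak1*, *jak2* and *stat3*. In D28, library A had the lowest *il11*, *il6r*, *il6st*, *osmr*, *jak1*, *stat3* and *socs3* and the highest *lifr* and *jak2*. The coefficient of variation of the 9 genes was 7.97% to 29.3% in D14, 3.95% to 107% in D28 and 10.7% to 104% in D7. The widest spread of a gene was thus smaller in D14 than in D7 and D28.

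Other genes of the pathway were taken from 7 lists of ligands, receptors and sheddases, JAK and STAT genes, inhibitors, the MAPK arm, STAT3 targets and inducers of IL-6. At D7, 5 of 58 genes tested were called, against 9.73% of all genes. The ligand gene *clcf1*, whose product signals through gp130 and LIFR, was 1 of 4 other ligand genes called. It had 218 to 298 CPM at D7, 76.6 to 105 CPM at D14 and 44.5 to 60.7 CPM at D28. Its log2 fold change was 1.95 ± 0.23 (SE, adjusted p = 0.00127 from edgeR), and it was called in 9 of 9 fits that left out 1 library. D7 libraries of *clcf1* and of *socs3* were thus both above all D14 and D28 libraries, as were those of 9.37% of all genes tested. A link between the 2 genes was not tested.

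Among 13 STAT3 targets tested, *ccnd1*, the gene of cyclin D1, was called higher and none lower. It had 43.0 to 72.7 CPM at D7, 27.2 to 31.5 CPM at D14 and 19.8 to 30.4 CPM at D28, and its log2 fold change was 1.22 ± 0.27 (SE, adjusted p = 0.0177 from edgeR). The call was lost without D7 B, D7 C or D14 B (adjusted p up to 0.104 from edgeR) and against D14 alone. The fitted values of all 13, of 19 listed, were above 0, with a median of 0.58, against -0.078 over all genes tested. They ran from 0.0064 for *irf1* to 1.22 for *ccnd1*, and the share of all genes above 0 was not counted. *socs5*, an inhibitor best known for its action on other cytokine and growth factor receptors, was 1 of 14 other inhibitors called, at 1.12 ± 0.32 (SE, adjusted p = 0.0498 from edgeR). It was called in only 3 of 9 fits that left out 1 library.

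Called lower at D7 were *stat6*, the factor of interleukin-4 signalling, and *nfkb1*, an NF-kappaB subunit gene among the IL-6 inducers. *stat6* had 35.1 to 52.6 CPM at D7, 98.6 to 111 CPM at D14 and 58.1 to 195 CPM at D28. Its log2 fold change was -1.32 ± 0.36 (SE, adjusted p = 0.0418 from edgeR), and it was called in 2 of 9 fits that left out 1 library. *nfkb1* had 38.4 to 54.5 CPM at D7, 125 to 143 CPM at D14 and 57.7 to 177 CPM at D28. It had a log2 fold change of -1.48 ± 0.36 (SE, adjusted p = 0.0252 from edgeR) and was called in 4 of 9 such fits. Both calls were also lost against D14 alone, so that neither held across settings as that of *socs3* did.

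No gene was called among 8 other receptors and sheddases or 10 genes of the MAPK arm at D7, where 2 and 1 had an unadjusted p under 0.05 and DESeq2 called 1 and 1. Those of the largest mean CPM were *adam10*, a sheddase of cytokine receptors in mammals, and *il11ra*, the receptor gene for interleukin-11. Their log2 fold changes were -0.19 (adjusted p = 0.673 from edgeR) and 0.83 (adjusted p = 0.0680). In the MAPK arm the kinase gene *map2k2* and the adaptor gene *shc1* had -0.048 (adjusted p = 0.940 from edgeR) and 0.18 (adjusted p = 0.731).

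**Figure D4:**
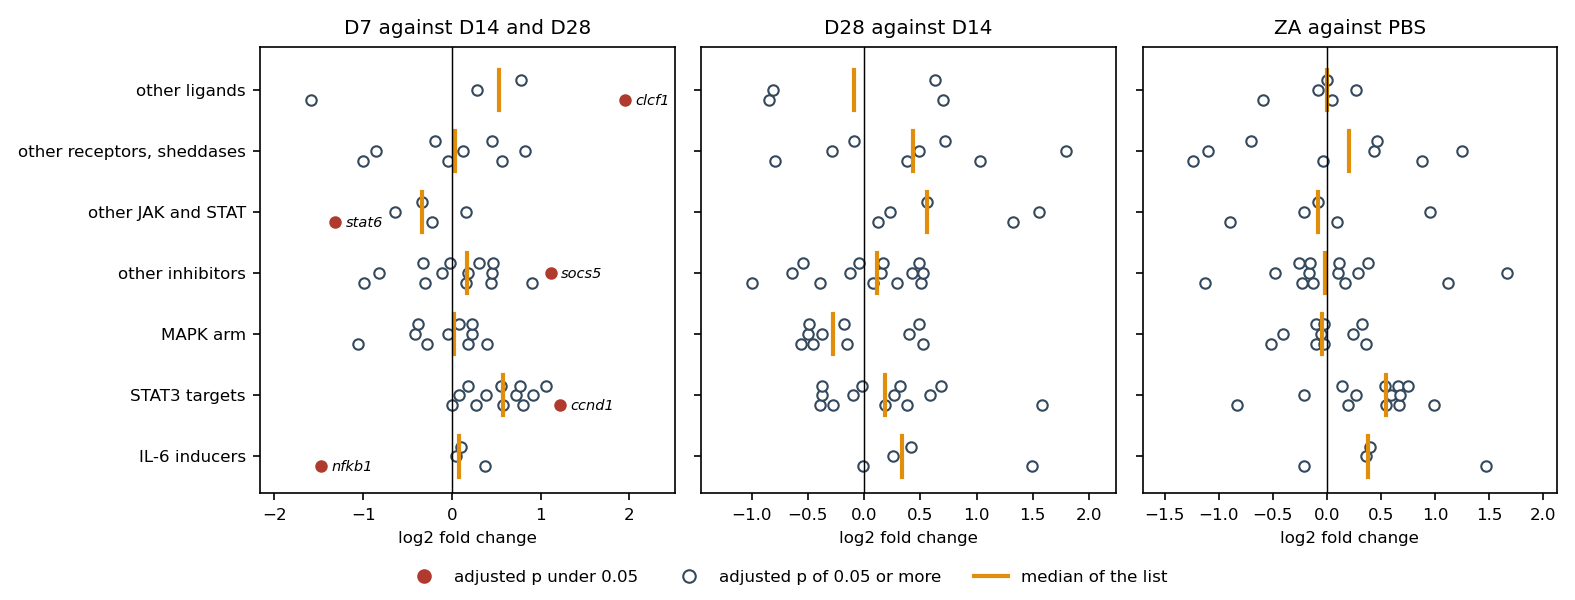
Points are the other pathway genes tested, by list on the vertical axis and log2 fold change on the horizontal axis, for the 3 comparisons, with orange bars at the median of each list. Red points passed an adjusted p of 0.05, and all 5 of them, *clcf1*, *socs5*, *ccnd1*, *stat6* and *nfkb1*, are in the D7 panel.

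Between D28 and D14 none of the 58 other pathway genes was called by edgeR, against 1.03% of all genes, with 8 at an unadjusted p under 0.05, 2 called by DESeq2 and 0 by limma. *clcf1* had a log2 fold change of -0.85 (adjusted p = 0.245 from edgeR). *il11ra* had 113 ± 36.5 CPM at D28 and 55.0 ± 8.97 CPM at D14 (SD, n = 3 libraries each), with 1.03 (adjusted p = 0.205 from edgeR), while *adam10* had -0.79 (adjusted p = 0.308). Values were 0.23 for *stat6*, 0.13 for *tyk2*, -0.13 for *cish* and -0.54 for *pias4*, none of which passed. They were -0.49 for *map2k2*, -0.17 for *shc1*, 0.19 for *fos*, -0.096 for *junb*, -0.010 for *nfkb1* and 0.42 for *rela*, and these did not pass either.

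At D21, no member was called between ZA and PBS, where 8 of 18988 genes, or 0.0421%, were called. None of the 9 tested had an unadjusted p under 0.05, and DESeq2 and limma called none. With the library letter as a block, in which ZA and PBS libraries of one letter are paired, 41 genes and again no member were called. *socs3* had 407, 611 and 452 CPM with ZA, against 511, 557 and 479 CPM with PBS. These overlapped, with a log2 fold change of -0.092 and a 95% interval of -0.87 to 0.69.

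*stat3* had 117, 159 and 198 CPM with ZA, against 191, 166 and 147 CPM with PBS, a log2 fold change of -0.11 (95% interval -0.86 to 0.63). *jak1* had 45.3, 123 and 158 CPM with ZA, against 69.2, 108 and 129 CPM with PBS, at 0.054 (-0.93 to 1.04). *jak2* had 11.3, 18.8 and 26.4 CPM with ZA, against 28.7, 19.1 and 31.3 CPM with PBS, at -0.51 (-1.47 to 0.45). Within each kinase and in *stat3*, the ranges of ZA and PBS libraries overlapped, and ZA A was the lowest ZA library.

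Of the receptors, *il6st* had 25.0, 27.8 and 51.1 CPM with ZA, against 36.0, 32.1 and 41.6 CPM with PBS, a log2 fold change of -0.10 (95% interval -0.96 to 0.75). *il6r* had 103, 53.3 and 53.8 CPM with ZA, against 179, 119 and 67.0 CPM with PBS, at -0.80 (-1.81 to 0.21). *osmr* had 5.66, 3.27 and 7.95 CPM with ZA, against 4.03, 1.92 and 6.73 CPM with PBS, at 0.40 (-1.303 to 2.10). The largest fitted difference was that of *lifr*, -0.91 (-1.91 to 0.083). *il11* was at 0.19 (-1.28 to 1.66). Under each letter, *il6r*, *lifr* and *jak2* were lower and *osmr* was higher in the ZA library than in the PBS library. For *jak2* under B the margin was small, 18.8 against 19.1 CPM. None of these genes was called with the block (adjusted p = 0.348, 0.396, 0.741 and 0.909 from edgeR). The sources do not say that letters pair libraries, and the share of all genes with such agreement was not counted.

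Of 59 other pathway genes tested at D21, none was called by edgeR, DESeq2 or limma, and 2 had an unadjusted p under 0.05. Of the 13 STAT3 targets, 11 had fitted values above 0, with a median of 0.55, against -0.0025 over all genes tested. However, 0 of the 13 had an unadjusted p under 0.05 from edgeR, and the share of all genes above 0 was not counted. *il11ra* had 57.3 ± 11.3 CPM with ZA and 121 ± 38.3 CPM with PBS (SD, n = 3 libraries each), with all ZA libraries below all PBS libraries and a log2 fold change of -1.10 (adjusted p = 0.895 from edgeR). *stat6* had 185 ± 82.6 CPM with ZA and 93.3 ± 31.5 CPM with PBS (SD, n = 3 libraries each), at 0.95 (adjusted p = 0.999). Across all genes tested, 5.27% had all ZA libraries below all PBS libraries. Of the remaining genes of the largest mean CPM in each list, log2 fold changes were 0.043 for *clcf1*, 0.88 for *adam10*, 0.089 for *tyk2*, 0.10 for *pias4* and -0.13 for *cish*. They were -0.10 for *map2k2*, 0.24 for *shc1*, 0.59 for *fos*, 0.75 for *junb*, 0.36 for *nfkb1* and 0.40 for *rela*, and none passed.

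Genes with a pattern like that of *socs3* were ranked by Pearson correlation of log2 CPM over the 15 libraries, among 13509 other genes with an annotated symbol. The 5 highest were *myo1e*, an unconventional myosin, with r = 0.98, *ptprs*, a receptor tyrosine phosphatase, with 0.97, *inpp5b*, an inositol phosphatase, with 0.97, *nphp4*, a ciliary protein gene, with 0.96, and *sf3a3*, a splicing factor gene, with 0.95. These values describe libraries that share groups and scaling. *myo1e* had 724 to 1198 CPM at D7, 226 to 340 CPM at D14, 135 to 357 CPM at D28, 238 to 312 CPM with ZA and 330 to 347 CPM with PBS. Its D7 libraries were above all others, as those of *socs3* were. The choice of *myo1e* by its correlation with *socs3* over the same libraries favours such a pattern. Of the members, *il6r* came next to *socs3* with r = 0.68 at rank 979, and *il11* followed with r = 0.66 at rank 1146. *lifr* and *jak1* had r = -0.32 and -0.50.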

How the data were processed

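RNA of sorted col3a1+ cells was sequenced in 15 libraries. STAR was used by the authors for alignment to rAnoCar3.1.pri, and the submitters' processing notes name SAMtools 1.17 and DESeq2 1.45.1. The counting tool and its strand setting are not given in the sources used here, although the kit was stranded. The deposited values, named as normalized, were whole-number counts per gene with differing totals and were analysed as counts. Of 26523 symbols, 26339 matched the RefSeq annotation.

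Genes reaching 10 counts in 3 or more libraries of a fit were tested with edgeR 4.0.16 in R 4.3.3 (TMM, quasi-likelihood test, Benjamini-Hochberg adjustment over all genes tested, called under 0.05). The 9 time course and 6 treatment libraries were fitted apart. In the time course, D7 was set against the mean of D14 and D28. Levels are CPM on 1 TMM scale over 15 libraries, so that levels and fold changes come from different scalings. Standard errors were obtained from each log2 fold change and its F statistic. CPM is not scaled by transcript length, so the choice of genes by mean level, described last, is no comparison of expression between genes.

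Same-letter PBS and ZA libraries correlated, after group means were removed, at 0.24 (A), 0.19 (B) and 0.15 (C) across genes, and the letter was therefore also fitted as a block. Alternatives were the block, DESeq2 1.42.0, limma 3.58.1 (prior count 2), DESeq2's size factors, no filter, mean counts of 50 or more, a log2 fold change over 2 as in the methods, 1 fit of all 15 libraries, single timepoints as reference, each library left out, omission of both PBS A and ZA A, and treatment entries as written. Limma on quantile-normalized values was added after the data were seen. The fits were run on simulated counts with planted changes larger than those fitted for any member, so power for the members was not tested. Plots were made with matplotlib 3.10.9 (Python 3.11.15).

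The genes, lists, tests and markers were chosen with earlier results of these data known. Pathway genes were named where called (up to 4 per list and comparison, by size of change) or, where none was called, as the 2 of largest mean level, of which 1 gene is not reported here. Of 159 listed genes, 130 were in the files by symbol. Images, flow cytometry and PCR were not analysed here.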

Additional observations from a re-analysis of the deposited data

How the results depend on the processing

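With 3 libraries a group, calls moved with the settings. For D7, 2075 genes were called, and 1242 with the replicate block, 3914 with DESeq2, 732 with a log2 fold change over 2, 986 against D14 alone and 321 to 4896 with 1 library left out. Members called higher numbered 2, and 1 with a log2 fold change over 2 or against D28 alone and 1 to 3 with 1 library left out. Members called lower numbered 0, and 1 with DESeq2, mean counts of 50 or more, quantile-normalized limma or D28 alone, and 0 to 1 with 1 library left out. For D28 against D14, 219 genes were called, and 109 with the block, 770 with DESeq2, 351 with quantile-normalized limma and 35 to 860 with 1 library left out, where members called higher numbered 0 to 2 against 1. For ZA against PBS, 8 genes were called, and 41 with the block, 69 with DESeq2, 13 with limma, 24 without a filter, 20 in 1 fit of all libraries, 0 with treatment entries as written, 1 without PBS A and ZA A and 0 to 6 with 1 library left out.

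Same-letter time course libraries correlated at -0.12 to 0.12, and the sources do not say whether these letters pair libraries. With the block *il6r*, *socs3* and *lifr* were still called (adjusted p = 0.0392, 0.0146 and 0.0345 from edgeR), whereas *stat6* and *nfkb1* were not. Signs turned for values that were not called. Against D14 alone *lifr* was at 0.46, and against D28 alone *il6st* was at -0.046 and *stat3* at -0.014. For ZA, *jak1* was at -0.053 with the block, -0.059 with limma and -0.052 with quantile-normalized limma. With treatment entries as written, *il6st*, *jak2*, *stat3* and *socs3* were at 0.19, 0.068, 0.24 and 0.071, and without PBS A and ZA A, *il6st*, *stat3* and *socs3* were at 0.076, 0.17 and 0.023. With 1 library left out, D28 against D14 ranged from -0.47 to 0.17 for *socs3*, -0.068 to 0.51 for *il6r* and -0.038 to 1.37 for *il11*. ZA against PBS ranged from -0.28 to 0.40 for *jak1*, -0.27 to 0.027 for *stat3*, -0.45 to 0.072 for *il6st* and -0.091 to 0.44 for *il11*. The cause was not tested for any of these. Of calls at D7, 57.8% were higher with TMM in edgeR and 45.6% with DESeq2, and for ZA 12.5% and 37.7%. The median over all genes moved from -0.078 to 0.035 between edgeR and quantile-normalized limma at D7, and from 0.041 to -0.18 between edgeR and limma for D28 against D14. Depth limits *il6*, which did not pass the count filter.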
